A study of Homo sapiens with 12 samples.

Results

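Across 3 related human leukemia lines, 60 protein-coding genes were on in K562 and at least 6 times lower in both of its resistant-lineage descendants, K/VP.5 and edit-3. The genes were chosen by those values themselves. Reads of a gene were scaled to the size of the library (CPM), averaged over the 4 libraries of each line and increased by 0.1. A gene was taken when the K562 value was at least 2 and at least 6 times the value in each of the other lines, and 60 of 58395 gene IDs met the rule. Of these IDs, 19912 were protein-coding, and 10557 of those reached the K562 level. Another 7 genes met the thresholds but were set aside by the first letters of their symbols (ADGRA3, HIST1H2BH, HIST1H3F, KCNE3, KCNMA1, ZNF608 and ZNF714). Because K562 against each descendant chose the genes, those differences are given as a description with no test. The step from K/VP.5 to edit-3 played no part in the choice and was tested.

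K562 is a widely used BCR-ABL-positive line derived from chronic myeloid leukemia. Its clonal subline K/VP.5 survives etoposide, which poisons topoisomerase II. Edit-3 is in turn 1 clone of K/VP.5, so it shares that clone's whole history, and in it the Cas9 protein, given with a guide and an oligonucleotide as repair template, was used to strengthen the 5′ splice site where exon 19 of TOP2A meets intron 19. The labels state that etoposide at 0.5 µM was given every other week in a sentence that covers all 3 lines, so it is not clear whether K562 received it. A difference between lines is therefore a difference between a parental line and 1 clone, or between 1 clone and the next, and clone, resistance and drug exposure cannot be told apart. Each line had 4 libraries of 25.3 to 37.1 M counted reads. The labels do not say that these came from separate cultures, so p-values measure only the spread between libraries, which may be technical. TOP2A, the edited gene, ran from 477 to 536 CPM in K562, 343 to 377 in K/VP.5 and 386 to 451 in edit-3, and counts per gene do not show the splice change. Erythroid markers, a known feature of K562, summed to 2868 to 4394 CPM in K562, 2560 to 3352 in K/VP.5 and 2716 to 4135 in edit-3, with none of the 15 markers at 0 reads. In these bulk libraries, fewer cells expressing a gene and less RNA per cell cannot be told apart.

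As background, K562 cells combine features of red cell and megakaryocyte precursors with scattered genes of other tissues, so genes known from neurons, kidney or gonads can be read in them. In the human genome the dinucleotide CpG is rare except in CpG islands, which lie over the promoters of most widely expressed genes, whereas many tissue-restricted genes have promoters with few CpGs. Small GTPases of the kind whose regulators recur in the list are molecular switches that direct the actin cytoskeleton: GTPase-activating proteins turn them off, and the guanine dissociation inhibitor holds them in the cytosol.

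RefSeq promoter windows differed widely in CpG content among the 4 members that came closest to silence in both descendants. These members had 1 or 2 reads over the 4 libraries of each descendant. They are ZPLD1, a membrane protein with a zona pellucida-like domain, ZFAND4, a protein with an AN1-type zinc finger and a ubiquitin-like domain, IGSF11, an immunoglobulin-family adhesion protein, and TMEM108, a transmembrane protein studied in neurons. Each sequence below spans 250 bases before to 50 bases after the start given by RefSeq on GRCh38.p14, 5′ to 3′ on the gene's strand, with every CpG in capitals. The ZPLD1 window (chr3:102434765-102435064, plus strand) holds 0 CpGs and lies inside the span that GENCODE 29 gives the gene, downstream of its first start. The ZFAND4 window (chr10:45672723-45673022, minus strand) holds 30, the IGSF11 window (chr3:119145971-119146270, minus strand) 17 and the TMEM108 window (chr3:133038141-133038440, plus strand) 41.
ZPLD1: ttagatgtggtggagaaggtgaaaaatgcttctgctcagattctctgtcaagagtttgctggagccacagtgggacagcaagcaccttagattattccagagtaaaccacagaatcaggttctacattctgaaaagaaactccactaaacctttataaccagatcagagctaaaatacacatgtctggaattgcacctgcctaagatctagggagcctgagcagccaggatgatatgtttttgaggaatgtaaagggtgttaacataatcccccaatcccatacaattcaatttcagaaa
ZFAND4: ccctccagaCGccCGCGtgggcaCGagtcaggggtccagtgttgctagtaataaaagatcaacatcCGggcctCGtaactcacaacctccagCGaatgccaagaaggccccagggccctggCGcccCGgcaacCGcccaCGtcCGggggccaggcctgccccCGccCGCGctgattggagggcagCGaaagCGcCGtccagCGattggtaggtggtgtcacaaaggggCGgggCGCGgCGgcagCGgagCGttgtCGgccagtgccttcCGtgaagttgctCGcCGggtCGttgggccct
IGSF11: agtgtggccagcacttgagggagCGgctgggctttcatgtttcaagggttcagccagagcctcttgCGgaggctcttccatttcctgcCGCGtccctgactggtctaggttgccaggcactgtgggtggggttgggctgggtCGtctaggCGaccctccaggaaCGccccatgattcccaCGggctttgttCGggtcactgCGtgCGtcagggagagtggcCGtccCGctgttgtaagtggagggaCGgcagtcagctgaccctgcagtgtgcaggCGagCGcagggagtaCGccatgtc
TMEM108: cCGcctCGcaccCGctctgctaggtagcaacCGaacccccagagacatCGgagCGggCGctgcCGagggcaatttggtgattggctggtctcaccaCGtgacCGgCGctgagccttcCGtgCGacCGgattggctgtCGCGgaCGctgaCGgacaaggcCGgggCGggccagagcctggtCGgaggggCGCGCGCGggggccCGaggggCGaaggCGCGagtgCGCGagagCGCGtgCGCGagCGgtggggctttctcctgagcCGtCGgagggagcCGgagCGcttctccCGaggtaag

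A promoter in the RefSeq table was matched for 53 of the 60 members. With a CpG observed-to-expected ratio of 0.6 as the mark of a CpG-rich window, 28 of the 53 (52.8%) reached it. So did 86.2% of 8377 other tested protein-coding genes that met the same K562 threshold, and 49.0% of all 27305 promoters. These other genes share the threshold but not the level. Over all 10063 of them, with or without a promoter, the median K562 mean was 41.2 CPM, against 10.1 in the 60 members. The part of expression level in these shares was not tested. The median window held 17.0 CpGs among members and 27.0 among the other genes that met the threshold. CpG-poor windows were common among the small GTPase and actin regulators, where 7 of 9 lay under the ratio, while 0 of the 2 membrane skeleton genes and 1 of the 5 receptors and transporters did. In the same windows, on both strands, the GC box letters GGGCGG stood in 60.4% of members, 72.7% of the other genes that met the threshold and 44.6% of all promoters. TATAAA stood in 9.43%, 4.77% and 12%, AGATAA, the letters read by GATA factors, in 13.2%, 4.48% and 10.5%, and CCAAT in 28.3%, 36.9% and 35.7%. None of these motifs contains another. A match is a description of letters, not of a bound site.

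The loss was deep. The median member stood at 10.1 CPM in K562, 0.503 in K/VP.5 and 0.261 in edit-3, and the ratio of K562 to the higher of the other lines ran from 6.08 to 75.7 with a median of 13.6. It was at least 10 in 42 members and at least 20 in 18. All 4 K562 libraries lay above all 8 others in 59 members, an order that the rule itself favours and that is given as a description. TMEM151B was the exception, at 0.276, 3.91, 0.0996 and 14.7 CPM in the K562 libraries against at most 0.346 elsewhere.

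**Figure D1:**
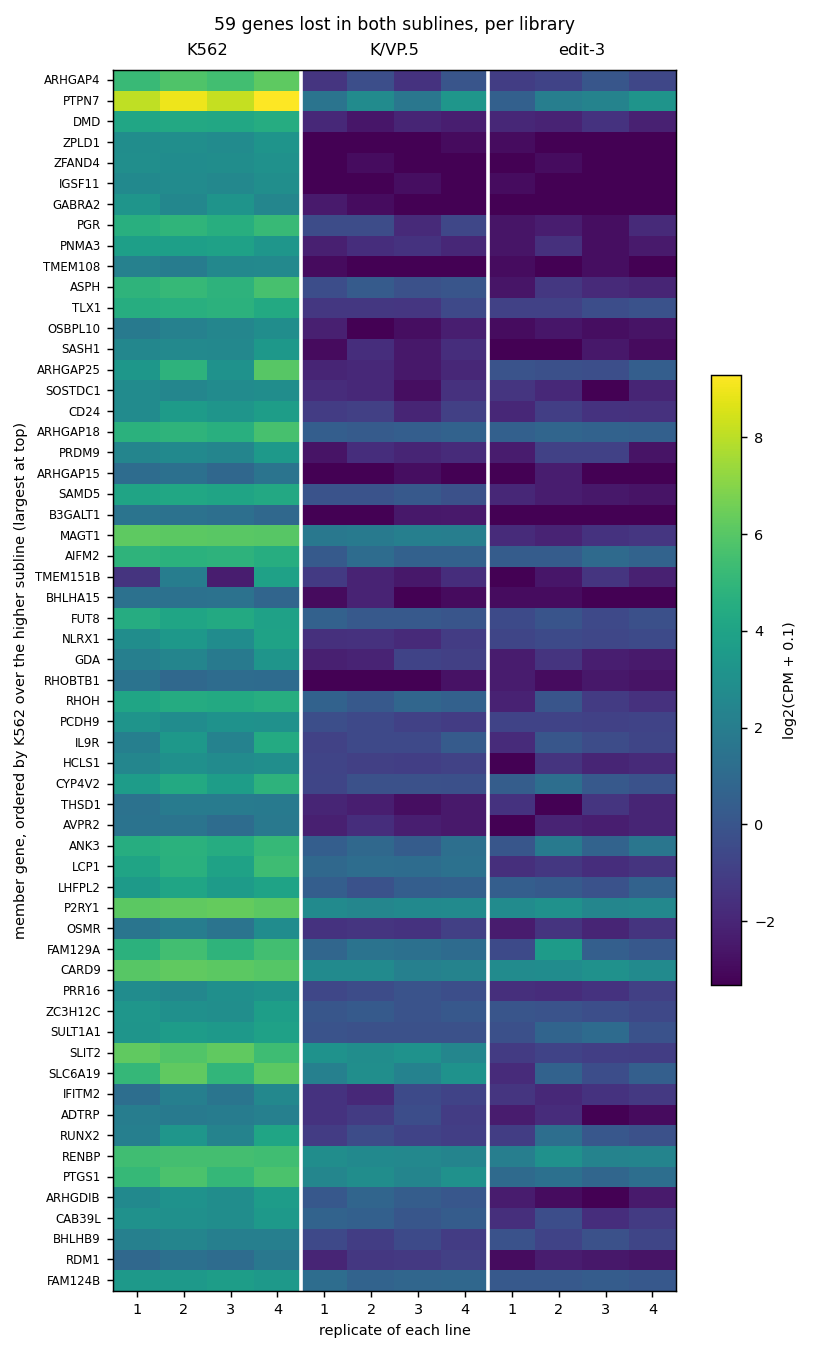
Level of 59 of the 60 member genes in each of the 12 libraries, as log2(CPM + 0.1) by colour, with genes in rows ordered by the ratio of K562 to the higher descendant and libraries in columns by line and replicate. The K562 block is bright for all genes drawn except TMEM151B, whose 4 K562 libraries run from 0.0996 to 14.7 CPM, and the edit-3 block is darker than the K/VP.5 block for members such as SLIT2, MAGT1 and ARHGDIB.

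At the edges of the rule, FAM124B, RDM1 and BHLHB9 stood just inside with ratios of 6.08, 6.10 and 6.23. MEF2C, CD53 and ELOVL2 stood just outside with 5.99, 5.99 and 5.94. For the K562 level, RHOBTB1, ARHGAP15 and BHLHA15 were the lowest members with means of 2.17, 2.26 and 2.30 CPM. SOD3, PHF11 and PARD3B had ratios above 6 but K562 means of only 1.70, 1.62 and 1.43 CPM.

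ZPLD1 (ENSG00000170044, chromosome 3, 102099244 to 102479841, plus strand), ZFAND4 (ENSG00000172671, chromosome 10, 45615501 to 45672780, minus strand) and IGSF11 (ENSG00000144847, chromosome 3, 118900557 to 119146068, minus strand) were all but absent from both descendants. ZPLD1 read 7.17, 7.37, 6.74 and 9.13 CPM in K562, 0, 0, 0 and 0.0270 in K/VP.5 and 0.0321, 0, 0 and 0 in edit-3. ZFAND4 stood at 7.35, 6.91, 7.24 and 8.14 CPM in K562, 0, 0.0353, 0 and 0 in K/VP.5 and 0, 0.0344, 0 and 0 in edit-3. IGSF11 was counted at 6.21, 6.78, 5.84 and 7.39 CPM in K562, 0, 0, 0.0366 and 0 in K/VP.5 and 0.0321, 0, 0 and 0 in edit-3. Every non-zero value outside K562 is a single read. Over 4 libraries, ZPLD1 had 870 reads in K562 and 1 in each descendant, ratios of 960 (exact 95% interval 172 to 37970) and 910 (163 to 36001) per library size. ZFAND4 had 851 against 1 and 1, and IGSF11 753 against 1 and 1. TMEM108 joined them with 4.48, 3.88, 5.91 and 6.01 CPM in K562, 0.0289, 0, 0 and 0 in K/VP.5 and 0.0321, 0, 0.0363 and 0 in edit-3, or 580 reads against 1 and 2. These intervals cover counting error only, and fitted fold changes of genes with so few reads depend on the prior count. The K562 libraries of these 4 genes lay within 1.55-fold of each other, under the median of 1.57-fold over all members.

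Near-complete absence was not general. At most 3 reads over the 4 libraries were left for 6 members in K/VP.5, for 9 in edit-3 and for 5 in both. GABRA2, the alpha 2 subunit of the GABA-A receptor, had 9.28, 5.62, 9.13 and 5.45 CPM in K562, 0.0866, 0.0353, 0 and 0 in K/VP.5 and 0 in all 4 libraries of edit-3, so its K562 level was at least 299-fold higher than in edit-3 when edit-3 is set at 3 reads in total. B3GALT1, a galactosyltransferase, also had 0 reads in edit-3, at least 97.3-fold below K562. At the other end, the mean was at least 1 CPM for 20 members in K/VP.5 and for 14 in edit-3, and P2RY1, CARD9, RENBP and PTPN7 kept between 4.87 and 7.07 CPM in both.

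Between K/VP.5 and edit-3, the comparison that the rule did not use, 18 members fell further in edit-3 and 1 rose by edgeR's quasi-likelihood test with Benjamini-Hochberg adjustment. Another 40 did not pass. TMEM151B, with 8, 121, 3 and 372 reads in the K562 libraries, was not tested, because too few of its libraries held enough reads for the filter. Over all 18286 genes tested, 10.6% fell and 12.9% rose. Of the 59 members tested, 23 had enough reads only through K562, the line in which they were chosen to be high. PGR, ADTRP and RDM1, counted among the 18 that fell, belong to these 23. When K/VP.5 and edit-3 were fitted alone, 36 members were tested, of which 15 fell and 3 rose, where 11.6% and 13.1% of the 17663 genes tested did. All 4 edit-3 libraries lay below all 4 K/VP.5 libraries in 18 members, where 12.5% of all genes tested did so, and above them in 3, where 13.7% did: ARHGAP25, CYP4V2 and NLRX1. The rule holds both lines at least 6 times below K562 and leaves the direction between them free.

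**Figure D2:**
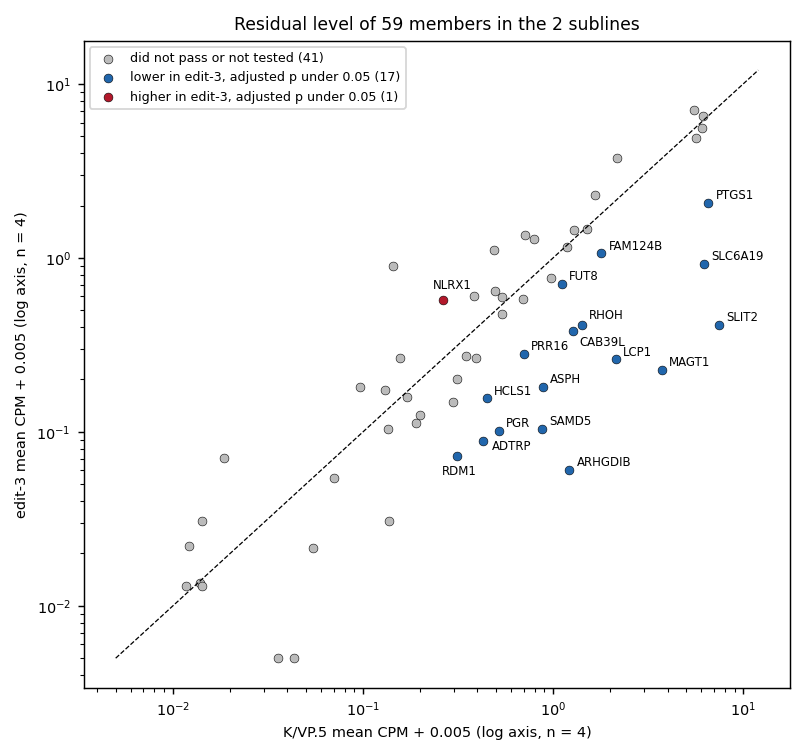
Mean CPM + 0.005 of 59 of the 60 members in K/VP.5 (horizontal log axis) and edit-3 (vertical log axis), 4 libraries each, with the dashed line marking equal levels. The 17 named blue genes fell further in edit-3, with SLIT2 and MAGT1 farthest from the line among those above 3 CPM in K/VP.5, and NLRX1 in red rose.

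Several members of high K562 level did not pass between the descendants. PTPN7, a tyrosine phosphatase of blood cells that acts on MAP kinases, had the highest CPM at 270, 494, 285 and 625 CPM in K562, 2.80, 6.68, 3.08 and 9.87 in K/VP.5 and 1.35, 4.16, 4.91 and 9.06 in edit-3. P2RY1, an ADP receptor of platelets, stood at 70.0, 73.4, 78.4 and 69.9 CPM in K562, 6.38, 5.47, 6.26 and 6.45 in K/VP.5 and 6.71, 8.16, 5.38 and 5.88 in edit-3. CARD9, an adaptor that links fungal sensing to NF-κB, read 64.3, 73.7, 68.0 and 62.1 CPM in K562, 6.38, 6.46, 4.43 and 4.83 in K/VP.5 and 6.68, 6.92, 8.32 and 6.36 in edit-3. None of the 3 passed between K/VP.5 and edit-3, with adjusted p of 0.84, 0.64 and 0.065, and the ranges of the descendants overlapped in each. These levels are not corrected for gene length. Per kilobase of exon, the level of RENBP in edit-3, 2.71 CPM, was the highest of all members there.

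**Figure D3:**
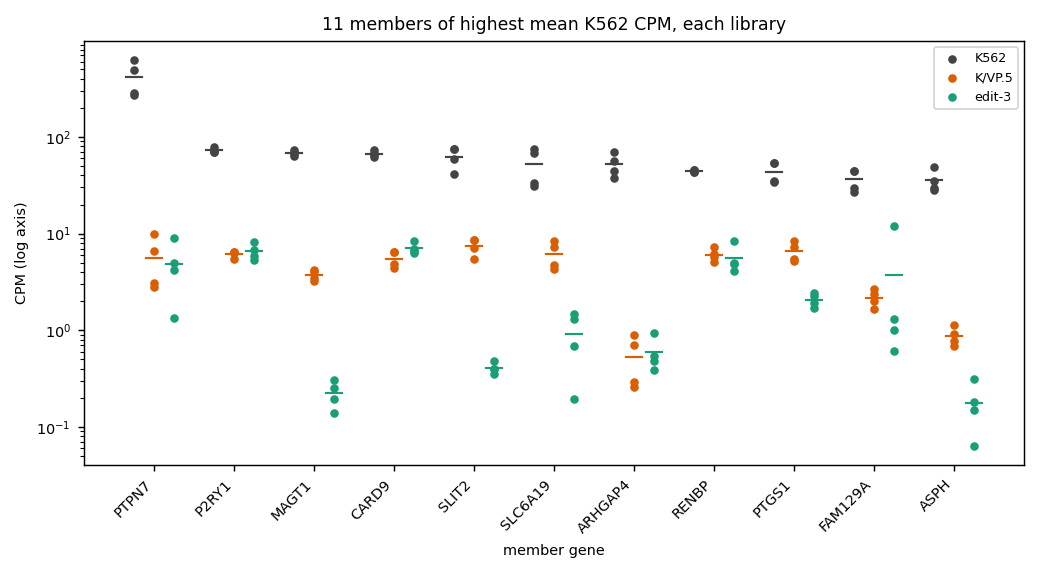
CPM on a log axis in each library for 11 of the 12 members of highest mean K562 CPM, with points for libraries and short lines for the mean of 4. The K562 points stand above all others for each gene, while the edit-3 points of MAGT1, SLIT2, SLC6A19, PTGS1 and ASPH lie below the K/VP.5 points.

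Small GTPases, their regulators and actin-binding proteins formed a group of 9 members: 4 fell further in edit-3, none rose and 5 did not pass. ARHGAP4, a GTPase-activating protein of blood cells, had the largest ratio of all members, 75.7, at 37.4, 56.0, 44.4 and 70.5 CPM in K562, 0.289, 0.706, 0.256 and 0.890 in K/VP.5 and 0.385, 0.482, 0.945 and 0.545 in edit-3. Its descendants overlapped. LCP1, the actin-bundling protein L-plastin, read 16.1, 25.9, 15.4 and 41.2 CPM in K562, 1.82, 2.15, 2.12 and 2.48 in K/VP.5 and 0.225, 0.310, 0.218 and 0.273 in edit-3, without overlap between the descendants (log2 fold change of edit-3 over K/VP.5 -3.04, SE 0.38, adjusted p = 5.0e-05). ARHGDIB, the dissociation inhibitor of blood cells, stood at 6.17, 8.46, 7.21 and 12.4 CPM in K562, 1.01, 1.66, 1.21 and 0.971 in K/VP.5 and 0.0963, 0.0344, 0 and 0.0909 in edit-3, and its 4 edit-3 libraries were all below 0.1 CPM (-4.29, SE 0.46, adjusted p = 7.3e-06). RHOH, an atypical small GTPase of lymphocytes that lacks GTPase activity, had 17.1, 21.5, 20 and 23 CPM in K562, 1.44, 1.06, 1.72 and 1.43 in K/VP.5 and 0.128, 0.895, 0.363 and 0.242 in edit-3 (-1.81, SE 0.36, adjusted p = 0.0022). HCLS1, an actin-binding substrate of tyrosine kinases, had 5.48, 7.98, 6.61 and 7.51 CPM in K562, 0.491, 0.424, 0.403 and 0.459 in K/VP.5 and 0, 0.275, 0.145 and 0.182 in edit-3 (-1.55, SE 0.43, adjusted p = 0.017), with every edit-3 library of both genes below every K/VP.5 library. RHOBTB1, an atypical small GTPase with BTB domains, had 2.69, 1.84, 2.13 and 2.01 CPM in K562, 0, 0, 0 and 0.0540 in K/VP.5 and 0.0963, 0.0344, 0.0727 and 0.0606 in edit-3. With 2 reads in all of K/VP.5, both in replicate 4, it did not pass, and without that library its adjusted p was 0.019. ARHGAP15, ARHGAP18 and ARHGAP25 are further GTPase-activating proteins. ARHGAP25 went the other way from the actin genes in value, at 10.2, 28.4, 8.43 and 65.5 CPM in K562, 0.144, 0.177, 0.0732 and 0.162 in K/VP.5 and 0.835, 0.757, 0.727 and 1.24 in edit-3, but with an adjusted p of 0.086 it did not pass, although its edit-3 libraries all lay above K/VP.5. Without K562 replicate 4 its adjusted p was 0.0058, and without K562 replicate 3 it was 0.039. ARHGAP25 also passed when K/VP.5 and edit-3 were fitted alone (log2 fold change 2.62, adjusted p = 8.3e-05) and with DESeq2 (2.67, adjusted p = 0.0015).

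Receptors, channels and transporters held 5 members, of which 2 fell further in edit-3 and 3 did not pass. MAGT1, a magnesium transporter and subunit of the oligosaccharyltransferase, read 72.5, 70.1, 67.4 and 63.7 CPM in K562, 3.23, 3.46, 4.21 and 4.05 in K/VP.5 and 0.193, 0.138, 0.254 and 0.303 in edit-3. SLC6A19, a neutral amino acid transporter of kidney and gut, read 33.7, 74.9, 31.1 and 68.8 CPM in K562, 4.33, 7.31, 4.76 and 8.39 in K/VP.5 and 0.193, 1.48, 0.691 and 1.30 in edit-3. The libraries of both genes fell in separate ranges in all 3 lines (-4.04, SE 0.18, adjusted p = 5.7e-10 for MAGT1 and -2.76, SE 0.50, adjusted p = 0.0021 for SLC6A19), so the levels descended in order from K562 through K/VP.5 to edit-3. AVPR2, the vasopressin receptor of the kidney collecting duct, had 2.66, 2.75, 2.09 and 3.32 CPM in K562, 0.115, 0.212, 0.110 and 0.0809 in K/VP.5 and 0, 0.138, 0.109 and 0.151 in edit-3. Its descendants overlapped and did not pass. GABRA2 and P2RY1, described above, complete the group.

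Of the 6 nuclear receptors and other transcription regulators, 2 fell further, PGR among them. PGR, the progesterone receptor, read 24.7, 30, 23.5 and 36.5 CPM in K562, 0.664, 0.671, 0.183 and 0.540 in K/VP.5 and 0.0642, 0.103, 0.0363 and 0.182 in edit-3 (-2.35, SE 0.46, adjusted p = 0.0018). For PGR the ranges nearly met, with edit-3 replicate 4 at 0.182 just under K/VP.5 replicate 3 at 0.183. PGR had enough reads to be tested only through K562, the line in which it was chosen to be high. TLX1, a homeobox factor of spleen development and T-cell leukemia, RUNX2, the bone master regulator, BHLHA15, a factor of secretory cells, and PRDM9, the methyltransferase that places meiotic recombination, did not pass. Their K562 means ran from 2.30 to 23.7 CPM and none exceeded 1.10 CPM in edit-3.

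Enzymes of metabolism and glycosylation held 9 members, of which 3 fell further and 6 did not pass. PTGS1, the cyclooxygenase COX-1, read 34.6, 53.3, 34.0 and 53.3 CPM in K562, 5.43, 7.24, 5.20 and 8.34 in K/VP.5 and 1.93, 2.41, 1.71 and 2.24 in edit-3 (-1.66, SE 0.21, adjusted p = 3.7e-05). ASPH, the aspartyl beta-hydroxylase of endoplasmic reticulum, had 29.6, 34.8, 28.4 and 49.0 CPM in K562, 0.693, 1.13, 0.769 and 0.917 in K/VP.5 and 0.0642, 0.310, 0.182 and 0.151 in edit-3 (-2.30, SE 0.36, adjusted p = 2.7e-04). FUT8, which adds the core fucose to N-glycans, had 22.3, 17.1, 19.8 and 14.6 CPM in K562, 1.39, 1.06, 1.06 and 0.917 in K/VP.5 and 0.610, 0.860, 0.581 and 0.757 in edit-3 (-0.65, SE 0.20, adjusted p = 0.032). In all 3, every edit-3 library lay below every K/VP.5 library, but the FUT8 call was lost when K/VP.5 replicate 1 (adjusted p = 0.098) or 3 (0.054), or edit-3 replicate 1 (0.069) or 3 (0.084), was left out. RENBP, a renin-binding epimerase of N-acetylglucosamine metabolism, had overlapping descendants at 43.3, 45.1, 45.3 and 42.9 CPM in K562, 7.27, 6.15, 5.79 and 5.10 in K/VP.5 and 4.14, 8.33, 4.87 and 5.0 in edit-3, and did not pass. AIFM2, an oxidoreductase that guards against ferroptosis, CYP4V2, a fatty acid hydroxylase, SULT1A1, a phenol sulfotransferase, GDA, guanine deaminase, and B3GALT1 made up the rest. CYP4V2 was higher in edit-3 but did not pass (adjusted p = 0.089). It passed when K/VP.5 and edit-3 were fitted alone (log2 fold change 0.90, adjusted p = 0.049) and with DESeq2 (0.92, adjusted p = 0.032). SULT1A1 has near-identical copies on chromosome 16 with which it can share reads.

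Among 8 adhesion, secreted and cell surface proteins, 2 fell further and 6 did not pass. SLIT2, a secreted guidance ligand of ROBO receptors, read 74.4, 58.9, 75.1 and 41.4 CPM in K562, 8.57, 7.06, 8.61 and 5.50 in K/VP.5 and 0.353, 0.482, 0.400 and 0.394 in edit-3 (-4.18, SE 0.26, adjusted p = 4.5e-08). ADTRP, a membrane hydrolase, had 3.97, 3.42, 3.89 and 4.35 CPM in K562, 0.260, 0.353, 0.696 and 0.378 in K/VP.5 and 0.0963, 0.207, 0 and 0.0303 in edit-3 (-2.26, SE 0.53, adjusted p = 0.0058). Neither gene's edit-3 range reached its K/VP.5 range, and K562 replicate 4 was the lowest of the K562 libraries for SLIT2 and the highest for ADTRP. ADTRP had enough reads to be tested only through K562, the line in which it was chosen to be high. PCDH9, a protocadherin, SOSTDC1, an antagonist of BMP and WNT ligands, and THSD1, an endothelial thrombospondin-repeat protein, kept means of 0.0920 to 0.535 CPM in K/VP.5. They did not pass, and neither did ZPLD1, IGSF11 and TMEM108.

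The 8 immune signalling genes and cytokine receptors gave the 1 member that rose in the fit of all 12 libraries. NLRX1, a mitochondrial member of the NLR family, stood at 7.21, 10.6, 7.01 and 15.3 CPM in K562, 0.231, 0.247, 0.183 and 0.378 in K/VP.5 and 0.514, 0.620, 0.545 and 0.606 in edit-3. Its 4 edit-3 libraries lay above the 4 of K/VP.5 (1.10, SE 0.35, adjusted p = 0.034), still at most 0.620 CPM. The call ended when K/VP.5 replicate 1, 2 or 3 (adjusted p of 0.097, 0.081 and 0.089) or edit-3 replicate 2, 3 or 4 (0.068, 0.057 and 0.080) was left out. PTPN7, CARD9, CD24, a glycosylated surface antigen, IFITM2, an interferon-induced antiviral membrane protein, IL9R and OSMR, receptor chains for interleukin 9 and oncostatin M, and ZC3H12C, a relative of the regnase RNases, did not pass. Reads of IFITM2, CD24 and IL9R can be shared with near-identical copies, so their values are uncertain.

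Both membrane skeleton proteins were spread over large genes. DMD, dystrophin, which ties actin to the muscle membrane, read 17.8, 19.5, 18.5 and 22.3 CPM in K562, 0.173, 0.0706, 0.146 and 0.108 in K/VP.5 and 0.161, 0.138, 0.254 and 0.121 in edit-3. ANK3, ankyrin-G, which anchors channels in neurons, had 23, 26.6, 22.1 and 35.4 CPM in K562, 1.27, 1.84, 1.17 and 2.35 in K/VP.5 and 0.931, 3.61, 1.53 and 3.03 in edit-3. Neither passed between the descendants, whose libraries overlapped.

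Of the other 13 proteins, 12 were tested, 5 fell further and 7 did not pass. SAMD5 (-3.08, SE 0.25, adjusted p = 4.3e-07) read 16.4, 18.2, 16.3 and 19.5 CPM in K562, 0.837, 0.848, 1.03 and 0.782 in K/VP.5 and 0.161, 0.103, 0.0727 and 0.0606 in edit-3. FAM124B (-0.77, SE 0.15, adjusted p = 0.0014) read 11, 11, 12.7 and 11.1 CPM in K562, 2.19, 1.52, 1.68 and 1.78 in K/VP.5 and 1.03, 1.03, 1.16 and 0.999 in edit-3. CAB39L, a relative of the LKB1 scaffold MO25 (-1.75, SE 0.30, adjusted p = 6.2e-04), read 8.28, 7.88, 7.14 and 11 CPM in K562, 1.53, 1.38, 0.952 and 1.19 in K/VP.5 and 0.225, 0.688, 0.218 and 0.363 in edit-3. In these 3 every edit-3 library was below every K/VP.5 library, and FAM124B made the smallest step. PRR16, a proline-rich protein tied to cell size (-1.30, SE 0.27, adjusted p = 0.0027), read 7.0, 5.62, 7.70 and 8.69 CPM in K562, 0.548, 0.671, 0.842 and 0.728 in K/VP.5 and 0.225, 0.207, 0.254 and 0.424 in edit-3, and RDM1, a RAD52-motif protein (-2.14, SE 0.47, adjusted p = 0.0037), read 1.79, 2.42, 2.13 and 3.16 CPM in K562, 0.144, 0.318, 0.330 and 0.432 in K/VP.5 and 0.0321, 0.103, 0.0727 and 0.0606 in edit-3. RDM1 can share reads with a near-identical copy, and it had enough reads to be tested only through K562. PNMA3, a paraneoplastic antigen family member derived from a retroelement, had 13.6, 13.8, 14.7 and 9.88 CPM in K562, 0.115, 0.212, 0.256 and 0.162 in K/VP.5 and 0.0642, 0.241, 0.0363 and 0.0909 in edit-3. FAM129A, also called NIBAN1, a stress-response protein, had 27.0, 44.9, 29.7 and 44.3 CPM in K562, 1.67, 2.65, 2.38 and 2.0 in K/VP.5 and 0.610, 12, 1.31 and 0.999 in edit-3. The edit-3 value of FAM129A turned on replicate 2: with all libraries the log2 fold change was 0.76 (adjusted p = 0.56), and without that library it was -1.15 (adjusted p = 0.013). SASH1, a scaffold of epithelial and endothelial cells, had 5.52, 6.11, 5.78 and 10.3 CPM in K562, 0.0289, 0.212, 0.0732 and 0.216 in K/VP.5 and 0, 0, 0.0727 and 0.0303 in edit-3 and did not pass (adjusted p = 0.079), although it did without K/VP.5 replicate 1 (adjusted p = 0.035). ZFAND4, LHFPL2, a tetraspan protein, TMEM151B, BHLHB9, a member of the GPRASP family, and OSBPL10, an oxysterol-binding relative, complete the group.

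The K562 libraries themselves lay apart for many members. The highest K562 library exceeded the lowest by a median of 1.57-fold in members and 1.26-fold in 10063 other protein-coding genes tested at that level, with a median coefficient of variation of 19.9% against 10.2%. Members were also read at lower levels, a median K562 mean of 10.1 against 41.2 CPM, so counting error was larger for them. The gap was at least 2-fold in 16 members (26.7%) and in 6.95% of the others. K562 replicate 4 held the highest value in 38 members (63.3%) and in 34.3% of the others. TMEM151B, a little-studied membrane protein, spread 148-fold between K562 libraries, ARHGAP25 7.77-fold, IL9R 4.87-fold and RUNX2 3.93-fold. Without K562 replicate 4, RUNX2, CAB39L, ARHGDIB, TMEM151B and RDM1 no longer met the rule, and TMEM151B then had a K562 mean of 1.43 CPM.

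**Figure D4:**
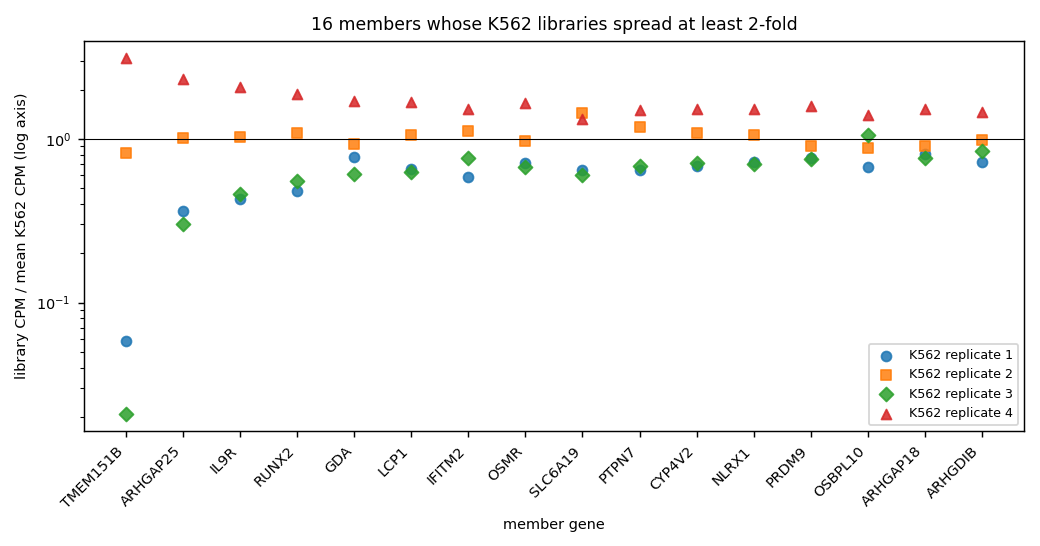
CPM of each K562 library divided by the mean of the 4, on a log axis, for the 16 members whose K562 libraries spread at least 2-fold, ordered by that spread. K562 replicate 4 (triangles) is the highest in all but SLC6A19, and the 148-fold range of TMEM151B exceeds that of ARHGAP25, 7.77-fold.

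In the genome, the members were scattered with a few clusters. Chromosome X carried 9 of the 60 (15.0%, against 3.41% of the 10063 other genes), among them MAGT1, ARHGAP4, RENBP, DMD, PNMA3, IL9R, BHLHB9 and AVPR2. Chromosome 13 carried 4 (6.67% against 1.65%), chromosome 6 carried 7 (11.7% against 5.0%), chromosome 1 carried 2 (3.33% against 10.2%), and chromosomes 15 and 18 to 22 carried none. The genes were long, with a median span of 73.9 kb against 31.5 kb, and 25 (41.7%) spanned at least 100 kb, against 17.3%. On GRCh38 coordinates of GENCODE 29, AVPR2 (chromosome X, 153902531 to 153907166, plus strand), ARHGAP4 (chromosome X, 153907367 to 153934999, minus strand) and RENBP (chromosome X, 153935263 to 153944691, minus strand) follow each other with gaps of 200 and 263 bases. PNMA3 (chromosome X, 153056409 to 153060467, plus strand) starts the same stretch, 842 kb from AVPR2. ANK3 (chromosome 10, 60026298 to 60733490, minus strand) and RHOBTB1 (chromosome 10, 60869438 to 61001440, minus strand) lie 136 kb apart, and SAMD5 (chromosome 6, 147508927 to 147737547, plus strand) and SASH1 (chromosome 6, 148272304 to 148552050, plus strand) 535 kb apart.

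The surroundings of the members were read as well. Of 321 tested protein-coding genes that are not members and start within 500 kb of a member's start, 140 (43.6%) were lower in K/VP.5 than in K562, where 21.4% of all tested protein-coding genes were. In edit-3, 134 (41.7%) were lower than in K562, against 22.4%. Both comparisons share the K562 libraries, and 114 neighbours (35.5%) were lower in both, against 14% of all tested protein-coding genes. The shifts were small, with median log2 fold changes of -0.24 and -0.22 against 0.00 and -0.02 overall. On chromosome X, 39 of 55 neighbours (70.9%) were lower in each comparison, where 42.8% and 41.2% of the tested protein-coding genes of that chromosome were, with medians of -0.91 and -0.84. Off chromosome X the shares were 38.0% (101 of 266, against 20.6%) and 35.7% (95, against 21.7%). From K/VP.5 to edit-3, 46 neighbours (14.3%) fell and 40 rose, near the 12.7% and 14.4% of all tested protein-coding genes. Neighbours of 1 member are not independent of each other.

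Some neighbours moved with or against their member by large amounts. The neighbour with the largest change, PALD1, 346 kb from AIFM2, rose from 0.299 CPM in K562 to 29.6 in K/VP.5 and 15.4 in edit-3 (log2 fold changes 6.58, SE 0.30, adjusted p = 6.0e-10, and 5.64, SE 0.30, adjusted p = 2.5e-09). GABRG1, the GABA-A gamma 1 subunit gene 351 kb from GABRA2, fell from 1.02 CPM to 0.0231 and 0.237. UPK1B, a tetraspanin gene 27.4 kb from the start of IGSF11, fell from 0.884 to 0.0400 and 0.0303 CPM. PHF11 fell from 1.62 to 0.128 and 0.0867 CPM, and CNRIP1, 360 kb from ARHGAP25, fell from 1.78 to 0.135 and 0.414. Around ARHGAP4, 18 of 25 neighbours were lower in K/VP.5 and 19 in edit-3. Off chromosome X the largest counts came from IFITM2, with 23 of 33 lower in K/VP.5 and 17 in edit-3. CARD9 followed with 14 of 25 and 9, and TLX1 with 9 of 12 and 8, so a few gene-dense places weigh heavily in the shares off chromosome X. Around THSD1 and LCP1 none of 9 and none of 2 were lower.

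**Figure D5:**
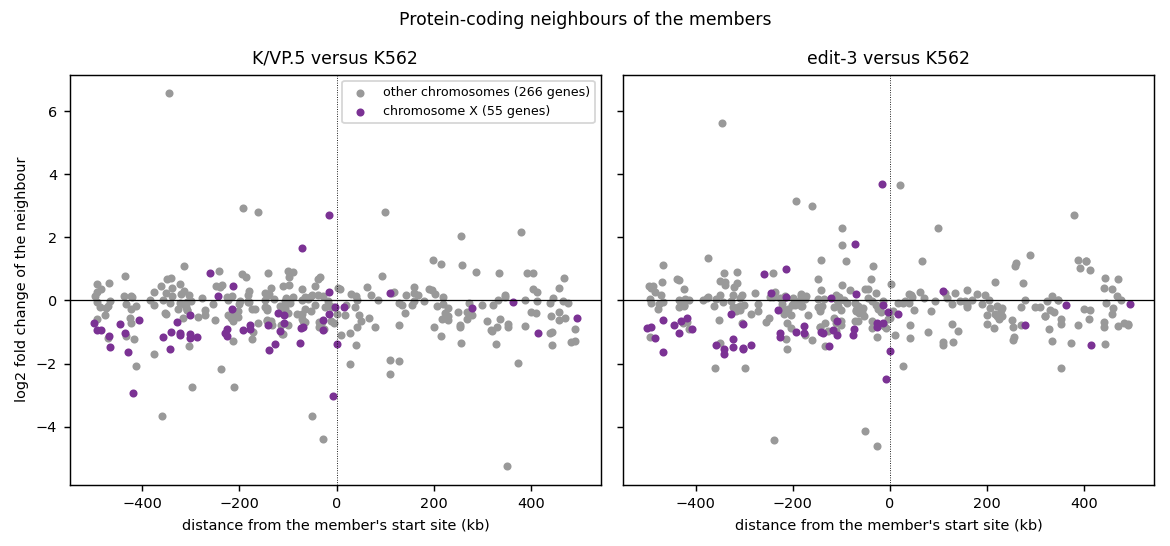
Log2 fold change against K562 of the 321 protein-coding neighbours, by distance of their start from the member's start in kb, for K/VP.5 (left) and edit-3 (right), with chromosome X in purple. Of the 55 neighbours on chromosome X most lie below 0, with medians of -0.91 and -0.84, and PALD1 stands highest at 6.58 and 5.64.

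Noncoding genes and pseudogenes beside the members followed in part. Of 34 tested within 100 kb of a member, 10 (29.4%) were lower in K/VP.5 than in K562 and 11 (32.4%) in edit-3, against 10.8% and 9.64% of the 5375 tested genes that are not protein-coding. PTPRVP, a phosphatase pseudogene beside PTPN7, stood at 32.0, 0.973 and 1.63 CPM in K562, K/VP.5 and edit-3. AC016723.1, which lies antisense across B3GALT1, stood at 19.1, 0.225 and 0.0934, and AL033504.1, a lincRNA that overlaps SAMD5, at 3.88, 0.0450 and 0.00860. Beside RDM1, LRRC37A9P stood at 1.07, 0.148 and 0.0253. The strand setting of the counting is not given, so the reads of an overlapping or antisense gene cannot be told apart from those of the member. Of the 60 members, 12 overlap another tested gene and 8 overlap a protein-coding one: CARD9 with DNLZ, ARHGAP4 with NAA10, ZC3H12C with RDX, RUNX2 with SUPT3H, TMEM151B with AARS2, OSMR with RICTOR, IFITM2 with IFITM1 and THSD1 with VPS36. NAA10 went from 85.0 CPM in K562 to 33.6 in K/VP.5 and 28.7 in edit-3, and DNLZ from 2.13 to 1.02 and 1.04, both passing as lower in each descendant. SUPT3H stood at 14.6, 9.51 and 12.2 CPM, RICTOR at 75.4, 65.9 and 63.0, and RDX at 120, 141 and 126. AARS2 stood at 125, 128 and 145 CPM, IFITM1 at 164, 217 and 135, and VPS36 at 26.8, 47.0 and 59.0.

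Most relatives of ZPLD1, ZFAND4 and IGSF11 did not pass as lower. Over all genes tested, 18.3% were lower in K/VP.5 than in K562 and 18.6% in edit-3, while 18.3% and 20.6% were higher. Among AN1-type zinc finger proteins, all 7 were tested against K562: 3 fell in each descendant, ZFAND4 included, and 1 rose, ZFAND2A, from 4.06 to 11.7 and 10.3 CPM. ZFAND5, which fell, only went from 73.3 to 59.4 and 49.4 CPM. Of 6 tested zona pellucida domain proteins 2 fell in each descendant, ZPLD1 and ZP3, the latter from 2.72 to 1.42 and 1.2 CPM. Of 11 tested immunoglobulin proteins related to IGSF11, 2 fell, IGSF11 included, while 3 rose in K/VP.5 and 6 in edit-3. JAM3, a junctional adhesion molecule, rose from 2.1 to 11.9 and 28.5 CPM. Median log2 fold changes in K/VP.5 and edit-3 were -0.26 and -0.19 for the AN1 list, -0.51 and -0.34 for the zona pellucida list and -0.10 and 0.40 for the IGSF11 list. The counts and medians include the member of each list. The rule chose that gene as low in both descendants, so its own call tells nothing of the relatives.

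Wider families held changes in both directions. They are read against the same shares of all genes tested, 18.3% lower and 18.3% higher in K/VP.5, and 18.6% lower and 20.6% higher in edit-3. Of 20 tested neural immunoglobulin adhesion genes, 13 rose and 3 fell in K/VP.5 against K562, and 9 rose and 5 fell in edit-3. ROBO1, a receptor of the member SLIT2, went from 0.346 CPM in K562 to 10.1 in K/VP.5 and 0.685 in edit-3, and ROBO2 from 0.00830 to 0.0751 and 1.33. Of 22 tested cadherins and protocadherins, 8 rose and 5 fell in K/VP.5, and 8 rose and 7 fell in edit-3. The falls include PCDH9 in each, a member that the rule chose as low in both. Among 7 tested P2Y and P2X receptors, 3 fell in each descendant, the member P2RY1 included, and 1 rose in K/VP.5. P2RX6 fell with P2RY1, from 5.82 to 1.31 and 1.36 CPM, while P2RX1 fell from 13 to 1.11 in K/VP.5 and stood at 10.6 in edit-3, above K/VP.5 (adjusted p = 0.029). Of 20 gene silencing enzymes and cofactors, 2 rose and 3 fell in K/VP.5 and 1 rose and 5 fell in edit-3, with medians of -0.01 and -0.09. DNMT3A, a DNA methyltransferase, rose from 71.4 to 129 CPM in K/VP.5 and stood at 81.0 in edit-3.

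Markers of other blood and stromal cells were read beside the members, and their part in the results was not tested. Against K562, 18.3% of all genes tested were lower and 18.3% higher in K/VP.5, and 18.6% lower and 20.6% higher in edit-3. From K/VP.5 to edit-3, 10.6% fell and 12.9% rose. Megakaryocyte and platelet markers summed to 25.2 to 44.1 CPM in K562, 14.3 to 18.0 in K/VP.5 and 32.8 to 64.9 in edit-3, with GP1BB and GP9 at 0 reads. Of the 6 tested, 3 fell in K/VP.5, 2 rose and 2 fell in edit-3, and 3 rose from K/VP.5 to edit-3. Granulocyte and monocyte markers summed to 26.7 to 32.5, 33.1 to 35.7 and 30.5 to 46.7 CPM, with 6 tested, 1 up and 1 down in K/VP.5 and 2 up in edit-3. Lymphoid markers summed to 56.8 to 113, 23 to 41.7 and 27.0 to 82.7 CPM, with MS4A1 at 0 reads, and most of the K562 sum was CD3D, at 49.0 CPM there, 10.8 in K/VP.5 and 35.7 in edit-3. PTPRC, which defines white cells, stood at 0.0534, 0.147 and 0.793 CPM. Stromal and endothelial markers summed to 318 to 548, 422 to 560 and 1895 to 3355 CPM. Most of the K562 sum was VIM, at 354 CPM there, 246 in K/VP.5 and 341 in edit-3. Of the 5 tested, 2 rose and 1 fell in K/VP.5, and 3 rose and 1 fell in edit-3. COL1A2 alone went from 6.68 in K562 to 231 in K/VP.5 and 2518 in edit-3. COL3A1, which was not tested, stood at 0.658, 0.103 and 0.0640 CPM, and DCN and LUM were all but absent.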

How the data were processed

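RNA-seq was analysed in 12 libraries, grouped by their source names, because the description field calls all of them parental. The values are raw counts of reads per gene for 58395 Ensembl gene IDs, which the authors deposited as 1 table with no normalization. They used GRCh38, HISAT2 2.1.0, Subread 1.5.1 and featureCounts, per the submitters' processing notes. Not given in the sources used here are the annotation release, the strand setting and the handling of reads with several matches.

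CPM were computed here from the column totals. The members followed the stated rule, with symbols starting ABC, ADGR, COL, HIST, HLA-, HOX, KCN, OR5 or ZNF dropped. The members, the 12 gene lists (230 of 231 symbols matched), the roles and the tests were chosen with earlier results of these data known. Counts were tested in R 4.3.3 with edgeR 4.0.16 (TMM scaling, filterByExpr, robust quasi-likelihood test, 1 coefficient per line over all 12 libraries), with Benjamini-Hochberg adjustment over 18286 genes and a threshold of 0.05. The SE is the log2 fold change divided by the square root of the F statistic. The scripts were tested on simulated data. DESeq2 1.42.0 served as an alternative, beside other scalings, filters, windows, a replicate block and leaving out each library. Positions came from GENCODE 29, and promoters from RefSeq (GRCh38.p14), matched by symbol, with FAM129A found as NIBAN1 and BHLHB9 as GPRASP3. Neighbours off chromosome X were added after seeing the data.

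Named with all libraries are ZPLD1, ZFAND4 and IGSF11, the 12 members of highest K562 CPM, the 10 of largest ratio, those passing between the descendants and those within 1 Mb of another. TMEM151B, ARHGAP25 and the noncoding genes, overlapping genes and list relatives given with values were added after their values were seen. Values of 3 genes, 1 of them a member, are not reported here, and counts over members and lists include them. The titles number the libraries 1 to 4 in each line. Deviations of same-numbered libraries correlated at 0.609, 0.326, 0.266 and 0.742 between K562 and K/VP.5, all above 0.1, so these were taken as paired. That pairing rests on the data, since no label states it. It is not specific to the number, because differently numbered libraries ran from -0.647 to 0.538, the latter for K562 replicate 3 with K/VP.5 replicate 1. The fit of all 12 libraries behind the main results holds no block and leaves the pairing out. For edit-3 the same-numbered correlations ran from -0.151 to 0.619 with K/VP.5 and from -0.15 to 0.705 with K562, so those libraries were not taken as paired. Pairs of libraries of 1 line differed by 6.68 to 67.4 in chi-square per degree of freedom, so none was counted as a duplicate.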

Additional observations from a re-analysis of the deposited data

Results flagged for a closer look

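In 9 of 141 sets of 4 libraries (members with at least 20 reads in a line), 1 library stood far from the other 3 by Dixon's criterion, which chance alone meets in about 1 in 20 groups. FAM129A reached 12 CPM in edit-3 replicate 2, where the other edit-3 libraries lay between 0.610 and 1.31. TLX1 reached 0.594 CPM in K/VP.5 replicate 4, against 0.293 to 0.318, and OSMR 0.432 CPM in the same library, against 0.256 to 0.283. CYP4V2 was low in K/VP.5 replicate 1, at 0.520 CPM against 0.755 to 0.777. Among K562 libraries, SASH1 was high in replicate 4 (10.3 CPM against 5.52 to 6.11), BHLHA15 was low in replicate 4 (1.62 against 2.49 to 2.56), FAM124B was high in replicate 3 (12.7 against 11 to 11.1) and BHLHB9 was high in replicate 2 (5.30 against 4.19 to 4.35). PCDH9 was low in edit-3 replicate 3, at 0.436 CPM against 0.482 to 0.485. Without K562 replicate 2 BHLHB9, and without K562 replicate 3 FAM124B, no longer met the rule.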

How the results depend on the processing

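The rule gave 60 members and 45 to 83 under other pseudocounts, ratios, K562 levels and scaling, and 56 to 63 when 1 library was left out. In edit-3 against K/VP.5, 15 to 19 members fell under the other fits, where the fit of those 2 lines alone did not test ADTRP, PGR and RDM1, and 17 to 20 when 1 library was left out. The count that rose went from 1 to 3 with DESeq2, with the fit of the 2 lines compared alone and with the replicate block, and ran from 0 to 3 when 1 library was left out. FAM129A changed sign, to -1.15, without edit-3 replicate 2, and its log2 fold change ran up to 1.11 when another library was left out. Neighbours within 1 Mb gave 222 lower in K/VP.5 and 216 in edit-3, a larger set by construction. Other alternatives gave 101 to 151 and 95 to 146, of which 101 and 95 leave out chromosome X, and 122 to 143 and 122 to 137 when 1 library was left out. Noncoding genes went to 6 and 7 under the stricter filter, which tests fewer genes, and to 9 to 11 and 10 to 12 when 1 library was left out. With the replicate number as a block in all 3 lines, 151 neighbours were lower in K/VP.5 and 146 in edit-3. Between the descendants 19 members fell and 3 rose in that fit, and ARHGAP25 (log2 fold change 2.77, adjusted p = 0.0071), CARD9 (0.35, adjusted p = 0.042) and SASH1 (-2.22, adjusted p = 0.043) then passed. The block also pairs edit-3 by number, although edit-3 was not taken as paired, so its values for edit-3 rest on a pairing that the data did not bear out. Of the comparisons of single members, 1009 kept their side of the threshold, 19 gained the call, 10 lost it (FUT8 and NLRX1) and 1 reversed. The lists kept their counts with DESeq2's size factors except 1 more IGSF11 relative that rose in K/VP.5.

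Depth limits what is known of the lowest members. SASH1, with 3 reads in edit-3, and RHOBTB1, with 2 in K/VP.5, passed between the descendants under some alternatives and not others. Both had enough reads to be tested only through K562. Intervals and floors cover counting error only. Each descendant is 1 clone, so the spread between libraries says nothing of the spread between clones.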

Other observations

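Within K562, replicates 2 and 4 both lay above replicates 1 and 3 for 34 of the 60 members (56.7%). The same held for 28.7% of the 10063 other tested protein-coding genes that met the K562 threshold. In K/VP.5 the same order held for 17 members (28.3%) against 20.8%, and in edit-3 for 15 (25%) against 21.6%. PTPN7 kept it in both K562 (494 and 625 against 270 and 285 CPM) and K/VP.5 (6.68 and 9.87 against 2.80 and 3.08), and so did SLC6A19, at 74.9 and 68.8 against 33.7 and 31.1 CPM in K562 and at 7.31 and 8.39 against 4.33 and 4.76 in K/VP.5. The order was noticed in the data, and the labels give no date or batch for the libraries.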
